A study of Mus musculus with 6 samples.

Results

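The 50 mitosis genes described here encode the proteins that start mitosis, build the spindle, attach and separate the chromosomes and divide the cell. They were picked by name: a row belonged to the set when one of the gene names in it was a listed gene. All 50 were found among the 46951 rows of a table of 3 mouse brain tumors and among the 46952 rows of a table of 3 cultures grown from such tumors, and all 50 reached at least 1 FPKM in a library of each table. FPKM (fragments per kilobase per megafragment mapped) is a level per transcript length and library size. Of all rows, 14335 passed the same minimum in tumors and 12809 in cultures.

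Every library came from C57BL/6 mice carrying 1 glioma-initiating cell (GIC) line, labelled ms7080 for the tumors and 7080X1 for the cultures. GICs are cells able to found a glioma when placed in the brain, where they were injected here, and tumors were taken once a mouse fell ill. The tumor groups were old hosts given NMN before the tumor, old hosts and young hosts, and the GIC groups were cultures derived from tumors of the same 3 host groups. NMN usually stands for nicotinamide mononucleotide, a precursor of NAD+, and the label of the old culture carries the letters NT, which the labels do not spell out. The sources used here do not give host ages, the NMN dose, the alterations that drive the line or how many mice were pooled. All 6 groups rest on a single line and on 1 library each, so there were no replicates, no test and no standard deviation, and every difference below compares 2 libraries.

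In dividing cells most of these genes are silent early in the cycle and are transcribed together in G2 and mitosis. The MuvB complex joins B-Myb (Mybl2) and then FoxM1 to switch them on, and joins the pocket proteins in the DREAM complex to keep them off in resting cells. It reaches their promoters through a short element called CHR, often helped by CCAAT boxes that bind NF-Y. Their summed RNA is therefore widely used as a readout of proliferation in gliomas, where Mki67, which encodes the antigen Ki-67, is a routine stain.

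The letters of that control region could be read for 40 of the 50 genes in RefSeq promoter windows of GRCm38.p6, which run from 250 bases before to 50 bases after the annotated start. The 3 stretches shown are the 150 bases before the start of Cdk1, Cdc20 and Ube2c, chosen because a CHR element lies upstream of the start in them. They are written 5′ to 3′ on the strand of the gene, and the capitals mark TTTGAA and CCAAT or their reverse complements TTCAAA and ATTGG. Cdk1 is at chr10:69352913-69353062 on the minus strand, Cdc20 at chr4:118437344-118437493 on the minus strand and Ube2c at chr2:164769779-164769928 on the plus strand.
Cdk1: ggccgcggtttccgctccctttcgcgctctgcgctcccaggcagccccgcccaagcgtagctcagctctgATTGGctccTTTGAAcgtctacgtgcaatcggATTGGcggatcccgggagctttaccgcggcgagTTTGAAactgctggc
Cdc20: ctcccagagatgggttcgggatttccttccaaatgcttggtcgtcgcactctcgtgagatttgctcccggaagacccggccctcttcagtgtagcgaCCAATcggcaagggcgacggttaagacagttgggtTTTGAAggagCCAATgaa
Ube2c: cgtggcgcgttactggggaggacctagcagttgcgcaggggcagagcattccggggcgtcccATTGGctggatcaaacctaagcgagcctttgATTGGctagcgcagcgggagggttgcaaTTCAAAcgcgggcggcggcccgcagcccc
TTTGAA began 71 and 15 bases before the start in Cdk1 and 18 bases before it in Cdc20, and its reverse complement began 29 bases before the start in Ube2c. GENCODE M21 starts these genes further upstream, so that the last 26 bases printed for Cdk1, 9 for Cdc20 and 31 for Ube2c lie inside the GENCODE gene.

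Across the 40 windows, a CHR element, spelled TTTGAA or TTCGAA on either strand, was present in 31 genes (77.5%), against 21.7% of all 27025 genes with a window. Among the 9308 genes with a window that were named in rows past the minimum in both tables, the share was 15.8%. TTTGAA alone was found in 29 of the genes (72.5%, against 20.2% of all genes) and the rarer TTCGAA in 4 (10%, against 1.8%). Within 100 bases before to 50 bases after the start, 28 of the genes (70%) held a CHR element, against 9.87% of all genes. At least 1 CCAAT box, read on either strand, stood in 30 genes (75%, against 41.1% of all genes), and 28 genes held both motifs (70%, against 8.61% of all genes). The map of motif positions shows where each match lay. The windows of Birc5, Mad2l1, Melk, Mybl2, Nuf2, Nusap1 and Pttg1 held none of these letters, which says nothing of the factors that bind elsewhere. The other 10 genes had no window, and 2 genes had several, which were searched together.

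**Figure D1:**
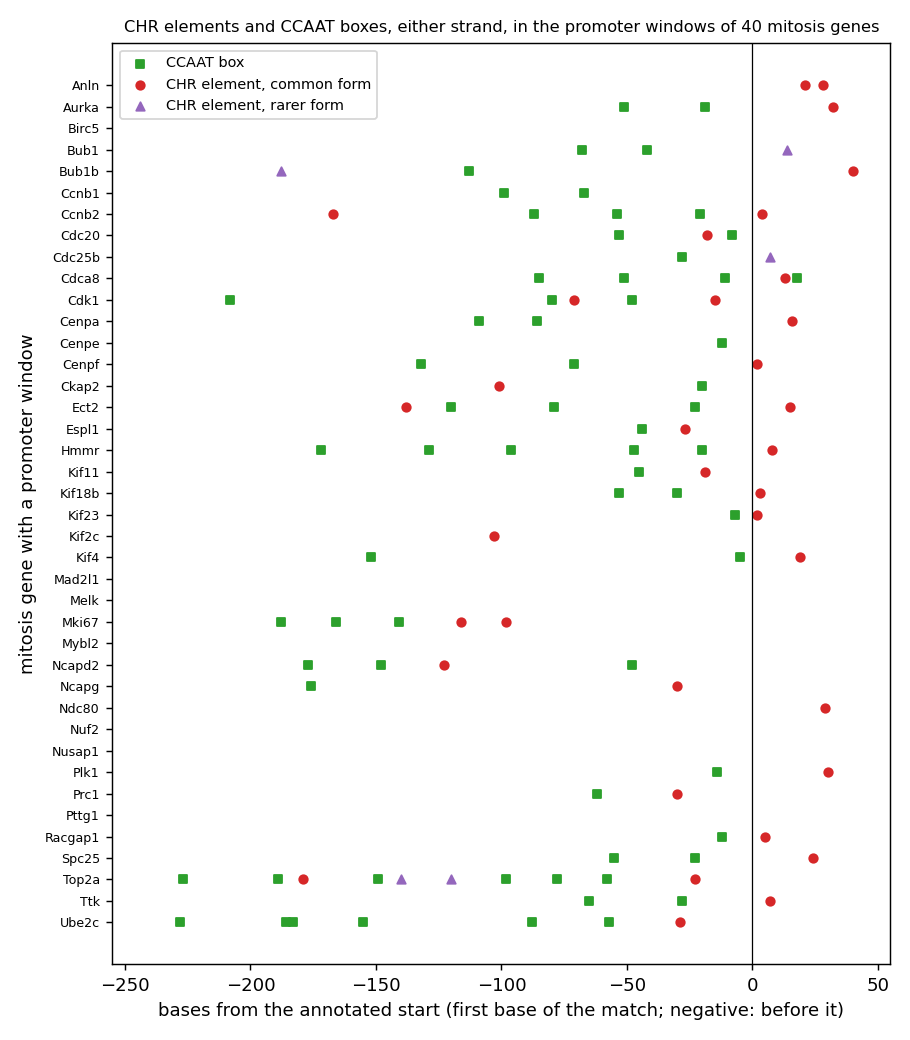
Positions of CHR elements (circles, TTTGAA; triangles, TTCGAA) and CCAAT boxes (squares), on either strand, in the promoter windows of 40 mitosis genes. The horizontal axis gives bases from the annotated RefSeq start, negative before it, and each row is a gene; in 28 of the 40 a CHR element lies from 100 bases before to 50 after the start.

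Depth, recovered from the smallest steps between low FPKM values, came to 18.8 M (mega) fragments in the NMN-before tumor, 11.3 M in the old tumor and 15.1 M in the young tumor, and to 9.72 M, 9.71 M and 12.7 M in the NMN-before, old and young GIC cultures. A mitosis gene was then backed by an estimated 106 to 16309 fragments in a library, with a median of 1166.5, so counting error was small for most of them. Host cells were plentiful in the tumors and nearly missing from the cultures. The summed FPKM of 11 neuron markers was 574 in the NMN-before tumor, 282 in the old tumor and 222 in the young tumor, and 10 microglia markers summed to 478, 530.1 and 364 FPKM in the same order. In the 3 cultures the same neuron markers summed to 8.69 to 12.1 FPKM, 9 of 10 microglia markers were below 1 FPKM, and the T cell markers Cd3e, Cd3g and Cd8a were at 0. All 7 glioma stem cell markers, among them Sox2, Olig2 and Nes, passed the minimum in the cultures and summed to 891 FPKM in the NMN-before culture, 514 in the old culture and 425 in the young culture. Single markers did not all follow the sum. Between the NMN-before and the old culture 4 of the 7 were above 0 and 3 below, with a median difference of 0.01 in log2(FPKM + 1).

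The mitosis genes were abundant in every library. Their summed level was 1752 FPKM in the NMN-before tumor and 1342 FPKM in the old tumor, against 1694 FPKM in the young tumor. In GIC cultures the sum was 2955 FPKM for NMN-before hosts and 3341 FPKM for old hosts, against 2551 FPKM for young hosts. The old library thus had the lowest sum among tumors and the highest among cultures. The median gene stood at 25.6 FPKM in the NMN-before tumor, 19.5 in the old tumor and 23.2 in the young tumor, which put it at percentiles 72.0, 64.6 and 68.9 among the rows past the minimum. In cultures the median gene stood at 39.96 FPKM in the NMN-before, 46.3 in the old and 37.9 in the young library, at percentiles 79.6, 82.6 and 79.2. The row that names Top2a together with the small RNA gene Gm23451 was the highest in each library, from 126 FPKM in the old tumor to 271 FPKM in the old culture. The lowest value in a library was that of Cdc25c or Ccnb2, and none was below 6.79 FPKM.

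**Figure D2:**
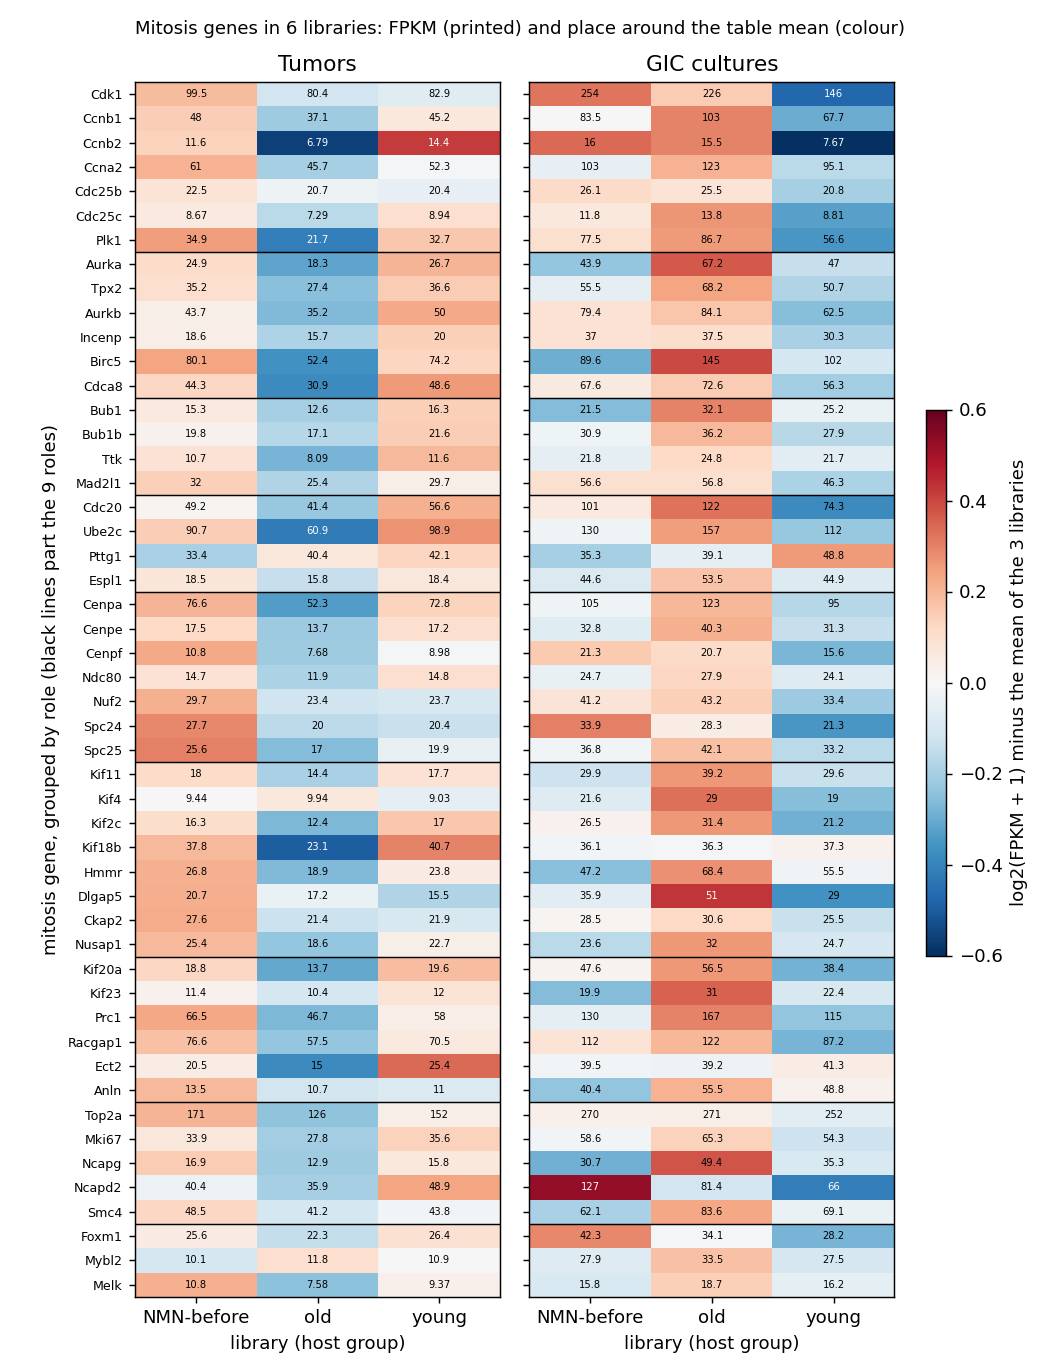
Levels of the 50 mitosis genes in the 6 libraries, with rows grouped by role and the FPKM printed in each cell. The colour gives log2(FPKM + 1) minus the mean of the 3 libraries of the same table: the old column is mostly blue (below the mean) in tumors and mostly red (above it) in GIC cultures.

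In the old tumor the mitosis genes lay below the young tumor almost throughout. On the log2(FPKM + 1) scale, on which all differences here are given, 46 of 50 were below 0 and 31 were at least 1.2-fold lower, while none was 1.2-fold higher. Of all rows past the minimum, 16.4% were lower by as much and 18.0% were higher by as much. The median difference of the set was -0.28, against -0.01 for all rows, and the range over the set ran from -0.98 for Ccnb2 to 0.14 for Dlgap5. At 1.5-fold 5 genes were lower and none higher, against 3.29% and 5.34% of all rows. On this scale none differed by 2-fold, although the FPKM ratio of Ccnb2, given below, is under 0.5. The counting interval of the FPKM ratio, which covers counting error only, lay below 1 for 38 genes and held 1 for 12. It can exclude 1 at a small difference, as for Smc4 at a ratio of 0.939. The share of all rows with such intervals was not computed, in this or the later comparisons, so these counts have no background. When the columns were rescaled to TPM, which moved the median of all rows to 0.06, 19 genes were at least 1.2-fold lower and none was higher, against 13.3% and 26.1% of all rows.

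By role, the kinases and cyclins that start mitosis had the largest single difference in tumors and, beside it, some of the smallest. Cyclin B2 (Ccnb2, chr9:70407692-70421547), a partner that activates Cdk1, had 6.79 FPKM in the old tumor, against 14.4 FPKM in the young tumor, a ratio of 0.472 (95% counting interval 0.374 to 0.59). Cyclin B1 (Ccnb1), the main partner, had 37.1 FPKM in the old tumor, against 45.2 FPKM in the young tumor. Cdk1 itself was at 80.4 and 82.9 FPKM in the old and the young tumor, which is nearly level. Plk1, a kinase that promotes entry and centrosome maturation, had 21.7 FPKM in the old tumor, against 32.7 FPKM in the young tumor, a difference of -0.57. Cyclin A2 (Ccna2) had 45.7 FPKM in the old tumor, against 52.3 FPKM in the young tumor, and Cdc25b, a phosphatase that activates Cdk1, was at 20.7 and 20.4 FPKM. Of the 7 entry genes 3 were 1.2-fold lower, with a median difference of -0.26.

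The Aurora kinases and the chromosomal passenger complex were the one role in which each member was at least 1.2-fold lower in the old tumor. All 6 lay between -0.64 and -0.33, with a median of -0.49. Aurora A (Aurka), which acts at centrosomes, had 18.3 FPKM in the old tumor, against 26.7 FPKM in the young tumor. Aurora B (Aurkb), the kinase of the passenger complex, had 35.2 FPKM in the old tumor, against 50.04 FPKM in the young tumor. Survivin (Birc5) and borealin (Cdca8), which bring the complex to the centromere, differed by -0.49 and -0.64. Survivin had 52.4 FPKM in the old tumor, against 74.2 FPKM in the young tumor.

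Checkpoint and anaphase genes also leaned lower, with 1 near-level exception. Ube2c, the ubiquitin-conjugating enzyme of the anaphase-promoting complex (APC/C), had 60.9 FPKM in the old tumor, against 98.9 FPKM in the young tumor, a difference of -0.69. Its activator Cdc20 had 41.4 FPKM in the old tumor, against 56.6 FPKM in the young tumor. Securin (Pttg1), the inhibitor that both help to destroy, was at 40.4 and 42.1 FPKM, a difference of -0.06. Of the 4 spindle checkpoint genes, Bub1, Bub1b and Ttk were 1.2-fold lower and Mad2l1, at 25.4 FPKM in the old tumor and 29.7 FPKM in the young tumor, was not, with a difference of -0.22.

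At the kinetochore the centromeric histone Cenpa had 52.3 FPKM in the old tumor, against 72.8 FPKM in the young tumor, a difference of -0.47. The Ndc80 complex, which grips microtubules, was split: Ndc80 differed by -0.29 and Spc25 by -0.22, whereas Nuf2 and Spc24 lay at -0.02 each. Among spindle genes Kif18b, a kinesin of growing microtubule ends (chr11:102905529-102925124), had 23.1 FPKM in the old tumor, against 40.7 FPKM in the young tumor, a ratio of 0.567 (95% counting interval 0.522 to 0.615). The chromokinesin Kif4 and the spindle protein Dlgap5 lay on the other side, at 0.12 and 0.14. In cytokinesis Ect2, which acts at the cleavage furrow, had 15.03 FPKM in the old tumor, against 25.4 FPKM in the young tumor. The furrow protein anillin (Anln) was nearly level, at 10.7 and 10.96 FPKM. Of the 5 chromosome structure genes, 4 were 1.2-fold lower, among them Mki67, with 27.8 FPKM in the old tumor, against 35.6 FPKM in the young tumor. The activators themselves differed by -0.24 for the Foxm1 row and by 0.10 for Mybl2.

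**Figure D3:**
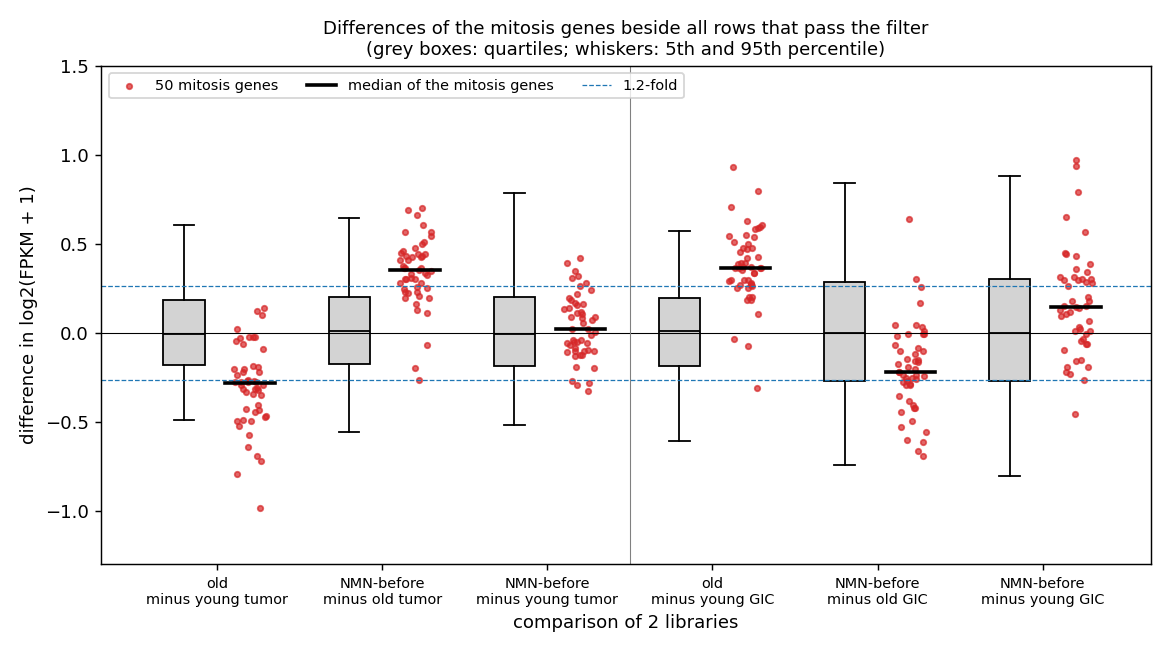
Differences in log2(FPKM + 1) for the 50 mitosis genes (points; thick line, median) beside all rows that pass the minimum (grey boxes, quartiles; whiskers, 5th and 95th percentile) in each comparison of 2 libraries; dashed lines mark 1.2-fold. The medians of the set are -0.28, 0.35 and 0.02 in tumors and 0.36, -0.22 and 0.15 in GIC cultures, in the order plotted.

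The NMN-before tumor had higher mitosis gene levels than the old tumor. Of 50 genes 47 were above 0, 35 were at least 1.2-fold higher and 1 was 1.2-fold lower, against 19.6% of all rows higher and 17.2% lower. The median difference was 0.35 for the set and 0.01 for all rows. With 44 genes the counting interval of the ratio lay above 1, a count without a share of all rows beside it. This comparison shares the old library with the one before it, so a low value in the old tumor enters both.

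All 7 centromere and kinetochore genes were at least 1.2-fold higher in the NMN-before tumor, and their median was 0.44. Spc24 had 27.7 FPKM in the NMN-before tumor, against 20.01 FPKM in the old tumor and 20.4 FPKM in the young tumor, so that here the NMN-before library alone stood apart. Spc25 followed, with 25.6 FPKM in the NMN-before tumor, against 17.0 FPKM in the old tumor and 19.9 FPKM in the young tumor. The largest differences over all roles were those of Ccnb2 (0.70), Kif18b (0.69) and Plk1 (0.66). Kif18b had 37.8 FPKM in the NMN-before tumor, against 23.1 FPKM in the old tumor, and Plk1 had 34.9 FPKM, against 21.7 FPKM. Birc5 had 80.1 FPKM in the NMN-before tumor, against 52.4 FPKM in the old tumor, a difference of 0.60. Ccnb2 itself had 11.6 FPKM in the NMN-before tumor, against 6.79 FPKM in the old tumor.

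The other roles followed with smaller steps. In the passenger complex Aurkb had 43.7 FPKM in the NMN-before tumor, against 35.2 FPKM in the old tumor, and Aurka had 24.9 FPKM, against 18.3 FPKM. Ube2c had 90.7 FPKM in the NMN-before tumor, against 60.9 FPKM in the old tumor, whereas Cdc20, with 49.2 FPKM against 41.4 FPKM, was short of 1.2-fold. In cytokinesis 5 of 6 genes were 1.2-fold higher, led by the midzone bundler Prc1, with 66.5 FPKM in the NMN-before tumor, against 46.7 FPKM in the old tumor and 58.03 FPKM in the young tumor. Racgap1, which forms centralspindlin with Kif23, had 76.6 FPKM in the NMN-before tumor, against 57.5 FPKM in the old tumor and 70.5 FPKM in the young tumor. Kif23 itself differed little, with 11.4 FPKM in the NMN-before tumor, 10.4 FPKM in the old tumor and 11.95 FPKM in the young tumor. Hmmr, a spindle assembly protein, had 26.8 FPKM in the NMN-before tumor, against 18.9 FPKM in the old tumor and 23.8 FPKM in the young tumor. The Foxm1 row had 25.6 FPKM in the NMN-before tumor, 22.3 FPKM in the old tumor and 26.4 FPKM in the young tumor, a narrow range. Mki67 had 33.9 FPKM in the NMN-before tumor, against 27.8 FPKM in the old tumor.

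The old tumor was the lowest of the 3 tumor libraries in 45 of 50 genes, against 33.2% of all rows. The NMN-before tumor was the highest in 26 genes and the young tumor in 22, against 34.6% and 35.1% of all rows. The genes below 0 in the NMN-before tumor relative to the old tumor were Pttg1 (-0.26), Mybl2 (-0.20) and Kif4 (-0.07). Pttg1 had 33.4 FPKM in the NMN-before tumor, against 40.4 FPKM in the old tumor and 42.1 FPKM in the young tumor. It was the sole gene at least 1.2-fold lower than the old tumor, with a ratio of 0.828 (95% counting interval 0.722 to 0.95). Mybl2 was narrow in range, with 10.1 FPKM in the NMN-before tumor, 11.8 FPKM in the old tumor and 10.9 FPKM in the young tumor.

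Set against the young tumor, the NMN-before tumor had no common shift of these genes. The median difference was 0.02 for the set and -0.01 for all rows, with 27 genes above 0 and 23 below. At least 1.2-fold, 6 genes were higher and 4 lower, where 20.4% of all rows were higher and 17.3% lower, and after rescaling to TPM the counts were 8 higher and 3 lower. The 3 highest were Spc24 (0.42), Dlgap5 (0.39) and Spc25 (0.35), and the 3 lowest were Pttg1 (-0.33), Ect2 (-0.30) and Ccnb2 (-0.28). The kinetochore role leaned up with a median of 0.24, while the passenger complex and checkpoint roles lay near -0.10. Cdk1 had 99.5 FPKM in the NMN-before tumor, against 82.9 FPKM in the young tumor, and Top2a, the topoisomerase that untangles sister chromosomes, had 171 FPKM, against 152 FPKM.

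In tumors, marker genes of host cells moved alongside these differences. The 6 fibroblast markers had the same order as the mitosis genes: they summed to 71.8 FPKM in the NMN-before tumor, 27.3 FPKM in the old tumor and 59.5 FPKM in the young tumor. The 6 endothelial markers had this order as well, with 49.7, 40.4 and 45.1 FPKM in the NMN-before, old and young tumor. Their sum was led by Cldn5, at 23.6 FPKM in the old tumor. Singly, 5 of the 6 were below 0 and 1 above in the old relative to the young tumor. In the NMN-before relative to the old tumor 4 were above 0 and 2 below. The 8 astrocyte markers summed to 2571, 2875 and 3229.7 FPKM in the NMN-before, old and young tumor. The 8 oligodendrocyte markers summed to 458, 582 and 693 FPKM, so both sums were highest in the young tumor. The astrocyte sum was led by Gfap, at 2237 FPKM in the old tumor. Single markers mostly went the other way: in the old relative to the young tumor, 5 of the 8 astrocyte markers were above 0 and 3 below (median 0.22). The oligodendrocyte markers also had 5 above 0 and 3 below (median 0.35). The 5 erythroid markers had the order opposite to the mitosis genes, with 57.9, 224 and 169 FPKM in the NMN-before, old and young tumor. Neuron and microglia markers, given above, were both higher in the old than in the young tumor, and the NMN-before tumor had the highest sum of neuron markers of the 3. The glioma stem cell markers summed to 912 FPKM in the NMN-before tumor and 857 FPKM in the old tumor, against 917 FPKM in the young tumor. Despite the higher sum, 5 of the 7 were below 0 and 2 above in the NMN-before relative to the old tumor (median -0.03). The part of these shifts in the mitosis gene differences was not tested, and in a bulk sample fewer dividing cells and less RNA per dividing cell cannot be told apart.

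In the cultures the sign was the other way round. The GIC culture from the old host had higher mitosis gene levels than the culture from the young host, with 47 of 50 genes above 0. At least 1.2-fold, 39 were higher and 1 lower, against 19.2% and 18.4% of all rows. The median difference was 0.36 for the set and 0.01 for all rows. Counting intervals of the ratio lay above 1 for 47 genes, below 1 for 1, and held 1 for 2. These interval counts have no share of all rows beside them. At 1.5-fold, 7 genes were higher and none lower, against 4.80% and 5.47% of all rows.

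All 7 entry genes were at least 1.2-fold higher in the old culture, with a median of 0.60. Ccnb2 again had the largest difference, with 15.5 FPKM in the old culture, against 7.67 FPKM in the young culture, a ratio of 2.02 (95% counting interval 1.62 to 2.52). Cdk1, nearly level between the old and the young tumor, had 226 FPKM in the old culture, against 146 FPKM in the young culture. Ccnb1 had 103 FPKM in the old culture, against 67.7 FPKM in the young culture. Plk1 had 86.7 FPKM in the old culture, against 56.6 FPKM in the young culture, and Cdc25c, another phosphatase that activates Cdk1, had 13.8 FPKM, against 8.81 FPKM. The entry genes are thus the role with the highest median in cultures, while in tumors the Aurora and passenger role had the lowest.

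The 6 Aurora and passenger genes were at least 1.2-fold higher too, with a median of 0.42. Aurka had 67.2 FPKM in the old culture, against 46.99 FPKM in the young culture. Birc5 had 145 FPKM in the old culture, against 102 FPKM in the young culture. Aurkb had 84.1 FPKM in the old culture, against 62.5 FPKM in the young culture. Of the 4 checkpoint genes 3 were higher by as much. In anaphase Cdc20 (chr4:118432901-118437352) had 122 FPKM in the old culture, against 74.3 FPKM in the young culture, a ratio of 1.64 (95% counting interval 1.54 to 1.76). Pttg1 was the exception once more and the sole gene at least 1.2-fold lower. It had 39.1 FPKM in the old culture, against 48.8 FPKM in the young culture, a ratio of 0.801 (95% counting interval 0.693 to 0.927).

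Among kinetochore genes 6 of 7 were at least 1.2-fold higher in the old culture, within a range of 0.20 to 0.39. Spindle genes spread more widely, from -0.04 for Kif18b to 0.79 for Dlgap5 (chr14:47387779-47418407). Dlgap5, which stabilises the fibres that hold the kinetochore, had 51.0 FPKM in the old culture, against 28.97 FPKM in the young culture, a ratio of 1.76 (95% counting interval 1.62 to 1.91). Kif18b had 36.3 FPKM in the old culture, against 37.3 FPKM in the young culture, and Ect2 had 39.2 FPKM, against 41.3 FPKM. These 2 genes, which ranked just after Ccnb2 among the lowest in the old relative to the young tumor, were therefore nearly level between the old and the young culture. In cytokinesis Prc1 had 167 FPKM in the old culture, against 115 FPKM in the young culture. Racgap1 had 122 FPKM in the old culture, against 87.2 FPKM in the young culture. Chromosome structure genes differed less, with a median of 0.27. Top2a had 271 FPKM in the old culture, against 252 FPKM in the young culture, and Mki67 had 65.3 FPKM, against 54.3 FPKM. The Foxm1 row had 34.1 FPKM in the old culture, against 28.2 FPKM in the young culture, and Mybl2 had 33.5 FPKM, against 27.5 FPKM.

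**Figure D4:**
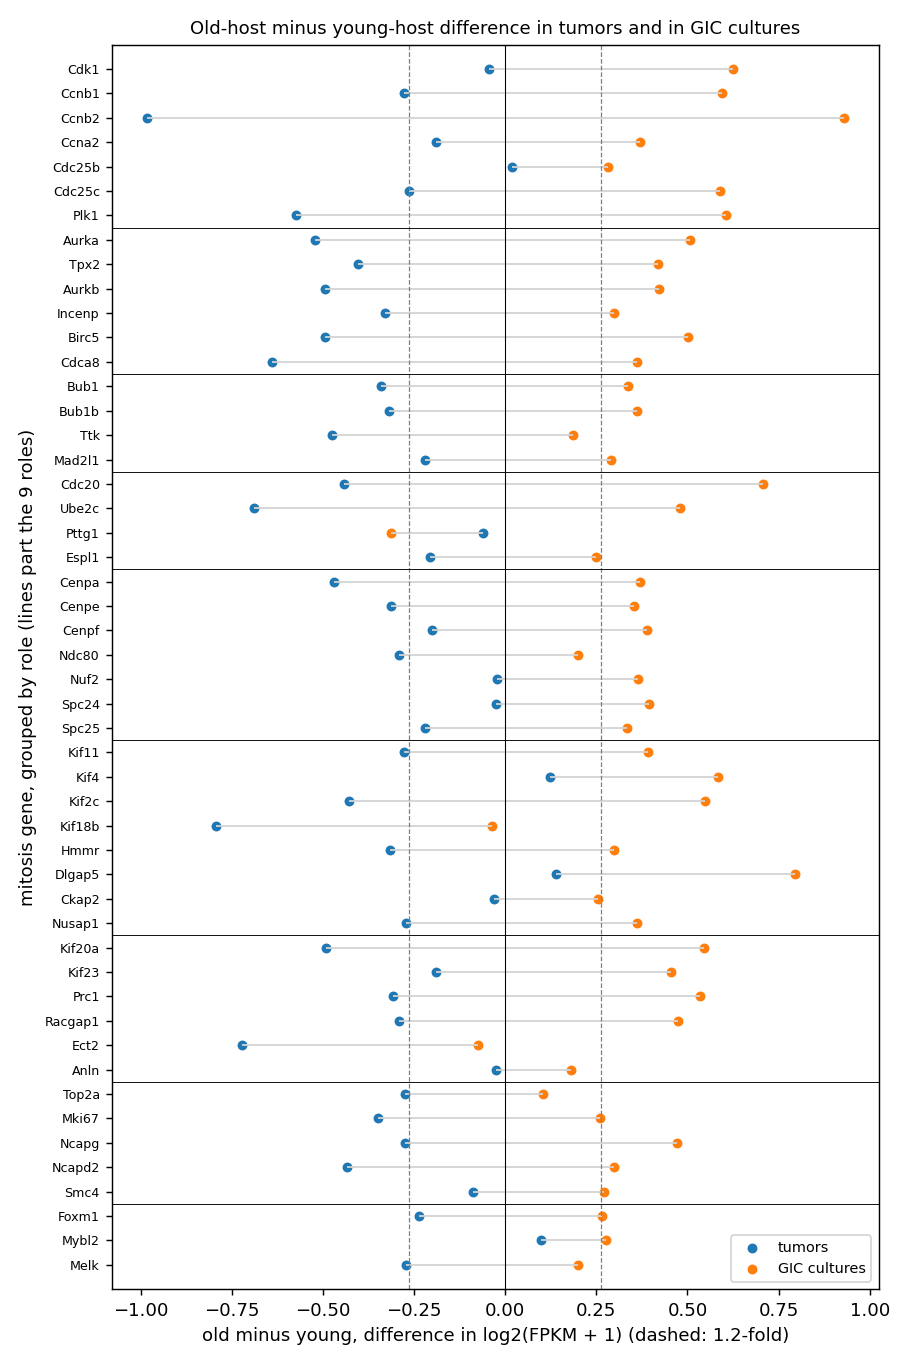
Old minus young difference in log2(FPKM + 1) for each mitosis gene in tumors (blue) and in GIC cultures (orange), grouped by role; dashed lines mark 1.2-fold. In 43 of 50 genes the tumor point is below 0 and the culture point above 0; Kif18b, Ect2 and Pttg1 are below 0 in both. The share of all rows with opposite signs was not computed.

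The culture from the NMN-before host had lower levels than the old culture for most genes, while more of all rows differed here than between old and young. Of 50 genes 42 were below 0, with 18 at least 1.2-fold lower and 2 higher, where 25.4% of all rows were lower and 26.5% were higher. The median difference was -0.22 for the set and -0.00 for all rows. This comparison shares the old culture with that of old and young cultures, so a high value in the old culture enters both. The interval of the ratio lay below 1 for 30 genes, above 1 for 4 and held 1 for 16. These interval counts too lack a share of all rows. At 1.2-fold, the share of lower genes is nearer to its background here than the leading share in the other 3 comparisons with an old library.

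The 3 lowest were Birc5 (-0.69), Ncapg (-0.67) and Kif23 (-0.61). Birc5 (chr11:117849251-117855743) had 89.6 FPKM in the NMN-before culture, against 145 FPKM in the old culture, a ratio of 0.617 (95% counting interval 0.561 to 0.678). Ncapg, a subunit of condensin I, had 30.7 FPKM in the NMN-before culture, against 49.4 FPKM in the old culture. Kif23, the motor of centralspindlin, had 19.9 FPKM in the NMN-before culture, against 31.01 FPKM in the old culture. Aurka was close behind, with 43.9 FPKM in the NMN-before culture, against 67.2 FPKM in the old culture. Dlgap5 had 35.9 FPKM in the NMN-before culture, against 51.0 FPKM in the old culture, and Prc1 had 130.2 FPKM, against 167 FPKM. All 8 spindle genes and all 6 Aurora and passenger genes were below 0, 5 and 3 of them by 1.2-fold.

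Entry genes differed less between these cultures, with a median of -0.16. Ccnb1 had 83.5 FPKM in the NMN-before culture, against 103 FPKM in the old culture, and Plk1 had 77.5 FPKM, against 86.7 FPKM. Cdc20 had 101 FPKM in the NMN-before culture, against 122 FPKM in the old culture, and Ube2c had 129.7 FPKM, against 157 FPKM. Mki67 had 58.6 FPKM in the NMN-before culture, against 65.3 FPKM in the old culture, and Top2a was level at 269.6 and 271 FPKM. Among the kinetochore genes Cenpa had 105 FPKM in the NMN-before culture, against 123 FPKM in the old culture, while Nuf2 had 41.2 FPKM, against 43.2 FPKM.

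A few genes went the other way. The row of Ncapd2, another condensin I subunit, had 127 FPKM in the NMN-before culture, against 81.4 FPKM in the old culture and 65.96 FPKM in the young culture, a ratio to the old culture of 1.57 (95% counting interval 1.5 to 1.63). The Foxm1 row had 42.3 FPKM in the NMN-before culture, against 34.1 FPKM in the old culture and 28.2 FPKM in the young culture. Both rows name further genes, Scarna10 beside Ncapd2 and Nrip2, 4933413G19Rik and Gm44596 beside Foxm1, so the value may not belong to the mitosis gene alone. They were the 2 genes at least 1.2-fold higher, and with rows that name 1 gene alone none was higher. Spc24 was next, with 33.9 FPKM in the NMN-before culture, against 28.3 FPKM in the old culture and 21.3 FPKM in the young culture. Cdk1 had 254 FPKM in the NMN-before culture, 226 FPKM in the old culture and 146 FPKM in the young culture, so its high level in the old culture was not lower in the NMN-before one.

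The old culture was the highest of the 3 cultures in 40 of 50 genes, against 30.4% of all rows, and the young culture was the lowest in 36, against 32.3% of all rows. Relative to the young culture, the NMN-before culture had 36 genes above 0, with a median of 0.15 for the set and 0.00 for all rows. At least 1.2-fold, 19 genes were higher and 2 lower, against 27.6% and 25.7% of all rows. After rescaling to TPM, which moved the median of all rows to -0.07, the counts were 11 higher and 6 lower, against 24.4% and 34.0% of all rows, so that the share of higher genes lay below its background. The highest were Ccnb2 (0.97), the Ncapd2 row (0.94) and Cdk1 (0.79), and 6 of the 7 entry genes were 1.2-fold higher. Ccnb2 had 16.0 FPKM in the NMN-before culture, against 7.67 FPKM in the young culture. Pttg1 was lowest (-0.46), with 35.3 FPKM in the NMN-before culture, against 48.8 FPKM in the young culture, and Anln followed at -0.26.

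Beside these culture differences, the markers of host cells were low in each library. Fibroblast markers summed to 4.87 FPKM in the NMN-before culture and 4.61 FPKM in the old culture, against 14.6 FPKM in the young culture. Endothelial markers summed to 0.776, 1.77 and 2.18 FPKM in the same order. The 8 astrocyte markers, which glioma cells also express, summed to 390.1 FPKM in the NMN-before culture and 171 FPKM in the old culture, against 153 FPKM in the young culture. Their part in the differences was not tested.

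Tumor and culture differences share no library and can be set side by side. Between old and young hosts, 43 genes were below 0 in tumors and above 0 in cultures, and 24 of them passed 1.2-fold both ways. Cdc25b, Kif4, Dlgap5 and Mybl2 were above 0 in both materials, and Kif18b, Ect2 and Pttg1 below 0 in both. Between NMN-before and old hosts, 39 genes were above 0 in tumors and below 0 in cultures, 12 of them past 1.2-fold both ways. Both comparisons use the same old tumor and the same old culture. The share of all rows with opposite signs was not computed, so these counts have no background beside them. In these 2 comparisons most genes had opposite signs in the 2 materials, but the sizes of the differences did not follow each other gene by gene. Across the 50 genes, which are not independent replicates, the tumor and culture differences between old and young had a Pearson correlation of -0.09 and a Spearman correlation of -0.13. Those between NMN-before and old had -0.02 and 0.02, and those between NMN-before and young 0.00 and 0.03. Thus a gene with a large difference in tumors was not in general one with a large opposite difference in cultures, Ccnb2 being a case where both were large. Since a shared normalization of the 2 tables is not stated, no difference between a tumor and a culture was computed. The host cell markers above were set side by side across the 2 tables without such a normalization.

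Further cell division genes outside the set, 108 in 5 lists, leaned the same way by smaller amounts. Between old and young they had a median of -0.16 in tumors, with 3 genes 1.2-fold higher and 38 lower, and of 0.19 in cultures, with 36 higher and 2 lower. Between NMN-before and old the median was 0.19 in tumors, with 40 higher and 2 lower, and -0.15 in cultures, with 19 higher and 41 lower. In that culture comparison 26.5% of all rows were higher and 25.4% lower, and in the other comparisons the shares of all rows were the 16.4% to 19.6% given above. The list closest to the 50 genes was that of 19 other regulators of entry and cytokinesis. It had a median of -0.28 between the old and the young tumor, with 10 genes lower and none higher, and of 0.35 between the old and the young culture, with 10 higher and 1 lower. In it Depdc1b had 5.74 FPKM in the NMN-before culture, 10.3 FPKM in the old culture and 5.28 FPKM in the young culture. Citron kinase (Cit), which acts in abscission, had 10.2 FPKM in the NMN-before tumor, 5.94 FPKM in the old tumor and 8.02 FPKM in the young tumor.

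Of 17 APC/C subunits and regulators, 3 were 1.2-fold lower and 1 higher in the old than in the young tumor, with a median of -0.13; as 16.4% of all rows were lower too, that count is at its background. The APC/C enzyme Ube2s, which extends the ubiquitin chains begun by Ube2c, had 106 FPKM in the NMN-before tumor, 72.9 FPKM in the old tumor and 93.5 FPKM in the young tumor. Among 30 other centromere and kinetochore genes, 11 were lower and 1 higher in the old than in the young tumor. The largest difference there was that of Cenpm, with 19.99 FPKM in the NMN-before tumor, 8.01 FPKM in the old tumor and 14.8 FPKM in the young tumor. In cultures Cenpm had 30.5 FPKM in the NMN-before, 21.9 FPKM in the old and 13.7 FPKM in the young library, so it was not highest in the old culture. The APC/C activator Fzr1, which acts after Cdc20, had a like order, with 38.4, 27.2 and 16.7 FPKM in the NMN-before, old and young culture. Sapcd2, a spindle orientation protein, also had this order, with 31.1 FPKM in the NMN-before culture, 21.998 FPKM in the old culture and 17.2 FPKM in the young culture. The cohesin acetyltransferase Esco2 had 8.42 FPKM in the NMN-before culture, 12.7 FPKM in the old culture and 11.4 FPKM in the young culture.

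The genes of the complexes that control the set had, as a list, no like shift of the median between old and young. Over 18 MuvB, DREAM and E2F genes the median was -0.08 between the old and the young tumor. There 3 were higher and 3 lower, against 18.0% and 16.4% of all rows. Single genes went both ways, such as Rb1 at 0.43 and E2f2 at -0.32. Between the old and the young culture the median was 0.02, with 2 higher and 2 lower, against 19.2% and 18.4% of all rows. Between the NMN-before and the old culture the list did lean lower, with a median of -0.17 and 3 of 18 genes above 0, against 49.4% of all rows. There 1 was 1.2-fold higher and 5 lower, against 26.5% and 25.4% of all rows. Between the NMN-before and the old tumor the median was -0.07, with 3 higher and 4 lower, against 19.6% and 17.2% of all rows. Lin52, a MuvB subunit, had 11.0 FPKM in the NMN-before tumor, 12.8 FPKM in the old tumor and 8.43 FPKM in the young tumor. Lin37, another, had 12.7 FPKM in the NMN-before culture, 19.8 FPKM in the old culture and 19.1 FPKM in the young culture. The 16 DNA replication genes measured, which act earlier in the cycle, resembled the mitosis genes in tumors. All 16 were below 0 in the old relative to the young tumor, with a median of -0.22. Of these, 5 were 1.2-fold lower, against 16.4% of all rows. In the NMN-before relative to the old tumor 9 were 1.2-fold higher (median 0.39), against 19.6% of all rows. In cultures 13 of the 16 were above 0 in the old relative to the young library, with a median of 0.19, and the median between NMN-before and old was -0.16. Cyclin E2 (Ccne2) was below 0 in both of these, with 9.19 FPKM in the NMN-before culture and 19.96 FPKM in the old culture, against 28.7 FPKM in the young culture. The 5 G1 cyclin and kinase genes had no common old minus young shift in cultures, with a median of -0.00. In the NMN-before relative to the old culture 4 of them were 1.2-fold higher, against 26.5% of all rows. Cyclin D2 (Ccnd2) led them, with 71.2 FPKM in the NMN-before culture, 33.8 FPKM in the old culture and 46.03 FPKM in the young culture. In tumors Ccnd2 had 13.8 FPKM in the NMN-before tumor and 23.2 FPKM in the old tumor, against 12.3 FPKM in the young tumor.

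**Figure D5:**
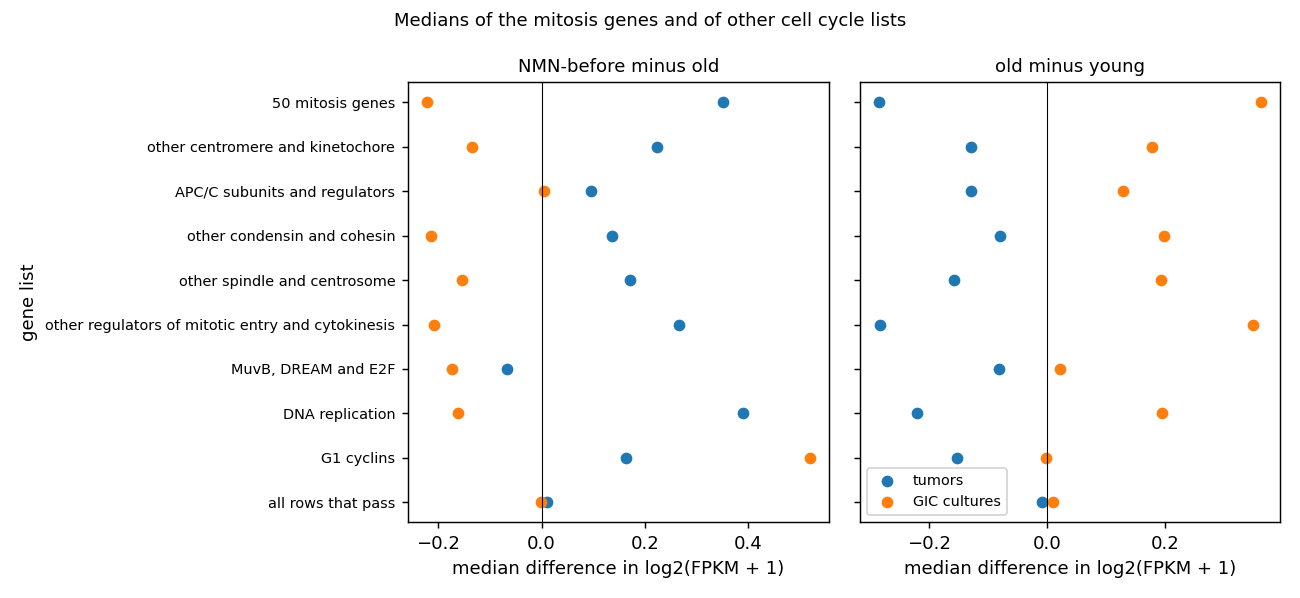
Median difference in log2(FPKM + 1) of the 50 mitosis genes, of 8 other cell cycle lists and of all rows that pass the minimum, in tumors (blue) and GIC cultures (orange); NMN-before minus old on the left, old minus young on the right. The mitosis genes lie at -0.28 in tumors and 0.36 in cultures between old and young, and the MuvB, DREAM and E2F list lies at -0.08 and 0.02.

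The differences of genes with a CHR element in the promoter window, as in Cdk1, Cdc20 and Ube2c, were set beside those of genes without one as a description. Between the old and the young tumor the 31 genes with the element had a median of -0.32 and the 9 without had -0.27. Between the old and the young culture the medians were 0.36 and 0.35. Between NMN-before and old they were 0.37 and 0.33 in tumors, and -0.19 and -0.26 in cultures. The widest gaps were between NMN-before and young, with 0.00 and 0.10 in tumors and 0.15 and 0.02 in cultures.

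For some genes the counting leaves room for reads of another gene. In GENCODE M21, 28 of the 50 overlap a further annotated gene, 20 of them one on the other strand, such as Ccna2 with Exosc9 and Cdc20 with Elovl1. The sources used here do not say whether strand was used in counting. Ccnb1, Ccnb2 and Kif4 have a named pseudogene, whose reads could be shared with them, so the large Ccnb2 differences are less certain than their counting intervals show.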

How the data were processed

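Total RNA extracted with TRIzol was depleted of ribosomal RNA, made into stranded libraries and read as 150-base pairs, per the labels' protocols. Per the submitters' processing notes, reads were handled on GRCm38 with Cuffdiff, Cufflinks 2.2.1, STAR 2.5.4b, Trim Galore 0.6.2 and bcl2fastq 1.8.4. The authors deposited FPKM values, 1 table for tumors and 1 for GIC cultures. The sources used here do not state the annotation, the normalization mode or the use of strand in counting. Differences were computed only within a table, while some levels, such as those of host cell markers and Top2a, were given side by side for both. From the deposited FPKM, log2 differences with a pseudocount of 1 were computed over rows whose highest value was at least 1 FPKM; they understate changes of low genes. A difference of 1.2-fold is a rule of size, not a test. Of the 50 mitosis genes, 3 share a row with other names, and all 50 loci overlapped the GENCODE M21 gene of that symbol.

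Depth came from low values of single-transcript genes (1500 to 12000 bases), of which 96.7% to 98.0% were whole multiples of 1 fragment within 0.05. Fragments behind a value used the length of 1 transcript per gene, the longest among its main annotated coding transcripts. Where shorter transcripts were expressed, the fragments are overestimated and the intervals too narrow. Intervals of ratios are 95% Clopper-Pearson, conditional on the summed fragments, and cover counting error only. Scripts were tested on simulated data. Alternatives were a pseudocount of 0.1 or 0.5, no minimum or 5 FPKM, median-of-ratios scaling, TPM, rows naming 1 gene and 1.5-fold; differences relative to the median of all rows were added after seeing the data. The members and lists were chosen with earlier results of these data known. Named were members by role, level or rank, and the gene of largest difference of each list per table. Python 3.11.15, pandas 2.3.3, numpy 2.4.6, scipy 1.17.1 and matplotlib 3.10.9 were used.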

Additional observations from a re-analysis of the deposited data

Results flagged for a closer look

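The median difference of the mitosis genes between old and young hosts had opposite signs in the 2 materials, -0.284 in tumors and 0.363 in GIC cultures (log2(FPKM + 1)). Between NMN-before and old hosts the medians were also opposite, 0.350 in tumors and -0.222 in cultures. Both results use the same old tumor and the same old culture, so they are not separate observations. With 1 library per group, the difference between tumors and cultures was not tested.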

How the results depend on the processing

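Of the alternative values of the medians and counts, 140 stayed close to the reported value, 16 moved and none reversed in sign. Close means counts within 1.5 times, and medians within 0.1 on the log2 scale or within a set fraction of the reported value where that is larger. By the rule for medians, the 1518 alternative values of single genes all stayed close to the reported ones, which allows wider shifts for genes with large differences. After rescaling to TPM, 19 genes were 1.2-fold lower in the old than in the young tumor, and in the NMN-before relative to the young culture 11 were higher and 6 lower. With median-of-ratios scaling 1 gene was lower in that last comparison. With rows naming 1 gene, 0 were higher in the NMN-before than in the old culture. At 1.5-fold, where fewer genes can pass by construction, 5 were lower in the old than in the young tumor, 4 were higher and 0 lower in the NMN-before than in the old tumor, and 0 were higher and 0 lower in the NMN-before than in the young tumor. In cultures at 1.5-fold, 7 were higher and 0 lower in old than in young, 1 higher and 4 lower in NMN-before than in old, and 4 higher and 0 lower in NMN-before than in young. The shares of all rows at 1.5-fold were 5.96% higher between the NMN-before and the old tumor, 8.52% lower between the NMN-before and the old culture and 11.4% higher between the NMN-before and the young culture, so these counts of 4 lie near or below their background. The causes of the changes under other scalings were not tested. No paired analysis was possible because each group is 1 library. Counting depth limits Ccnb2 and Cdc25c most, and variation between mice or cultures could not be estimated.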
